A study of Mus musculus with 4 samples.

Results

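The genes described here are the chemokines and chemokine receptors of the mouse. They were chosen by symbol, from the genes named Ccl, Cxcl or Ccr, Ccrl or Cxcr with a number, Cx3cl1, Cx3cr1 and Xcr1, without Cxcl12, Cxcl13 and Cxcr5. The genes described are 57 of the 34312 in the count files, of which 37 were ligands, including the pseudogenes Ccl19-ps1 and Ccl19-ps3, and 20 were receptors.

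The study compared the RNA of bone marrow cells from wild-type (WT) C57Bl/6 mice aged 3 months (mature) and 24 months (elderly), with 2 libraries per age and no other allele or treatment in either group. The paper gives the mice as male and the cells as sorted by flow cytometry for the leptin receptor (LEPR) and against the lineage markers Ter119, CD31 and CD45, which yields Lin-LEPR+ skeletal stem and progenitor cells. The labels give the source only as bone marrow, isolated whole. Each group drew its RNA from a pool of 3 or 4 mice, while the titles number the libraries of an age as mouse 1 and mouse 2. How the pools relate to these titles is not given in the sources used here, so p-values and SDs (n = 2) measure the spread between libraries and not between mice.

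Chemokines are small secreted proteins that bind G protein-coupled receptors and direct the migration of leukocytes along a gradient. CC and CXC ligands are named for the spacing of their first cysteines, CX3CL1 is also made as a membrane-bound protein, and atypical receptors bind ligands without G protein signaling and remove them. In bone marrow, stromal cells that express LEPR are the main source of CXCL12, which retains CXCR4+ hematopoietic cells, and ligands of CXCR2 draw neutrophils out into the blood.

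The libraries held between 10472117 and 15650518 counts. A count was possible only on bases that belong to 1 transcript in the annotation, so a low count of a gene with few such countable bases was not read as low expression. The stromal marker Lepr was counted at 6380.2 and 5632 CPM (counts normalised by library size and TMM factor) in the mature and at 4103 and 5781 CPM in the elderly libraries. All 10 listed markers of LEPR+ stroma had lower fitted levels in elderly libraries, but 0 of the 10 passed the test in edgeR and 2 had an unadjusted p under 0.05. Their summed level lay between 31263 and 31782 CPM in mature and between 19166 and 28038 CPM in elderly libraries. Markers of other cells stood apart in single mature libraries, since the eosinophil and basophil list summed to 323 CPM in mature replicate 1 and 29.5 CPM in mature replicate 2, while the megakaryocyte and platelet list summed to 53.7 and 383 CPM.

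In elderly libraries 5 of these chemokine and receptor genes rose, namely the ligands Cxcl9 and Ccl5 and the receptors Ccr1, Cx3cr1 and Cxcr4. Of the 57 genes, 47 had a count in any library and 44 (26 ligands and 18 receptors) passed the filter of more than 2 counts over the 4 libraries. The 5 make up 11.4% of the 44 tested, against 2.28% of all 21402 genes tested that rose at the same threshold of an adjusted p under 0.05 (edgeR quasi-likelihood test, Benjamini-Hochberg). At an unadjusted p under 0.05 in edgeR, 15 of the 44 were higher and 2 (Ccl9 and Ccl17) lower, a share not counted over all genes. At the adjusted threshold the test called 0 of the 44 lower, against 0.449% of all genes (2.73% in either direction), although DESeq2 called 1, Ccl9. With an absolute log2 fold change over 2 required as well, Ccl5, Cx3cr1 and Cxcl9 remained, 3 against 0.958% of all genes that rose so far and 0 against the 0.159% that fell so far.

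The fitted level was higher in elderly libraries for 34 of the 44 and lower for 10. For 21 of the 44, the lower elderly value exceeded the higher mature value (47.7%), against 23.0% of all genes tested, and for 3, Ccl9, Ccl17 and Ccr10, the order was the opposite, against 18.0%. The median log2 fold change was 1.07 over the tested chemokine and receptor genes, 0.75 over the ligands and 1.26 over the receptors, against 0.02 over all genes. These counts and medians include genes with 0 counts in both mature libraries (Ccr1l1, Ccl8, Ccl24, Ccr6, Ccr9, Cxcl5 and Cxcl15), which passed the filter through elderly counts alone and so could only be higher. Over the 28 with a mean of at least 1 CPM, 20 were higher and 8 lower, and the median was 0.77. All 5 that rose are among the 28. This cut is on the mean of the 4 libraries and so also depends on the ages. Ccl5, Ccr2 and Ccl27a averaged under 1 CPM in mature libraries (0.858, 0.643 and 0.773 CPM), and Ccl17 in elderly libraries (0.419 CPM). The same count over all genes at this cut was not made.

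**Figure D1:**
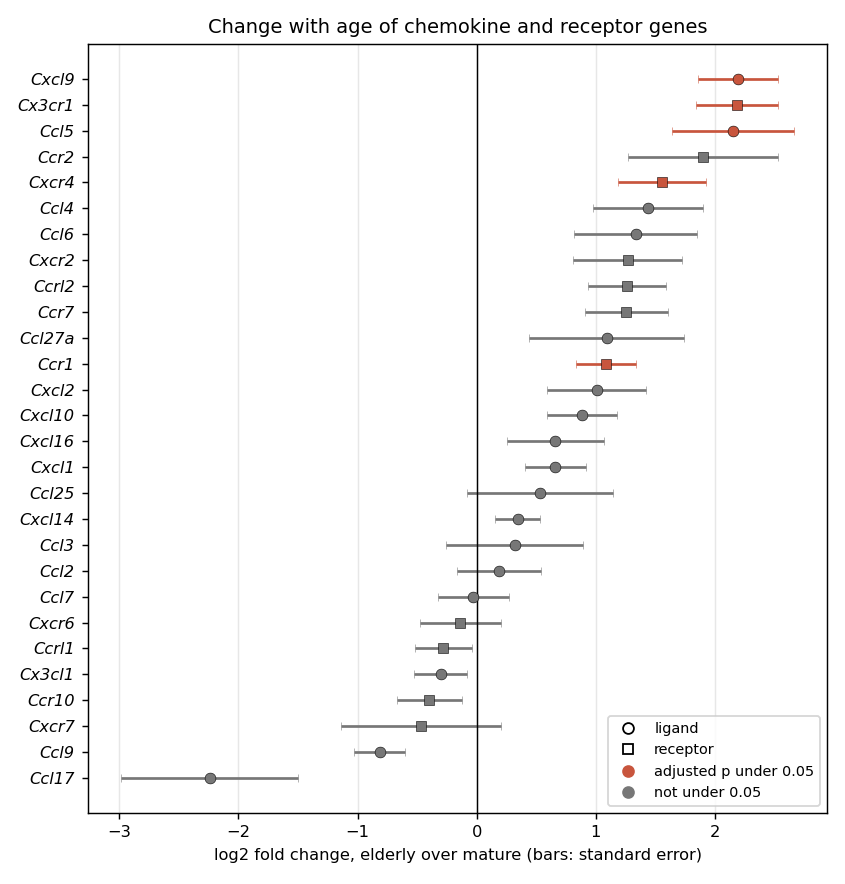
Log2 fold change, elderly over mature, of the 28 chemokine and receptor genes with a mean of at least 1 CPM, sorted by value, with bars for the standard error of the edgeR fit. Circles are ligands, squares are receptors, and the 5 in red (Cxcl9, Cx3cr1, Ccl5, Cxcr4 and Ccr1) passed an adjusted p under 0.05.

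All 5 calls rest on both elderly libraries. Without elderly replicate 2 none of the 5 was called in edgeR, with the adjusted p at 0.600 for each and 0 calls among all genes, and without elderly replicate 1 none was called either, with adjusted p-values from 0.0514 for Cxcl9 to 0.507 for Cxcr4. Without mature replicate 2 only Cxcl9 and Cx3cr1 of the 5 were called and the others had adjusted p-values from 0.0695 for Ccl5 to 0.285 for Ccr1, whereas without mature replicate 1 all 5 were called again. With 1 library left out, the log2 fold changes lay between 1.77 and 2.50 for Cxcl9, 1.90 and 2.48 for Cx3cr1, 2.00 and 2.28 for Ccl5, 0.82 and 1.36 for Ccr1, and 0.97 and 2.43 for Cxcr4. The exact test of edgeR with the fixed dispersion of 0.2 that the study used called none of the 5 at an adjusted p under 0.05, and gave 10 of the 44 tested genes an unadjusted p under 0.05. The paper states its own threshold as a p under 0.05 with a fold-change cut and names no adjustment, so the adjusted threshold here differs from it.

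Ligands of CXCR3, the receptor of activated T and NK cells, are induced by interferon. Cxcl9 (ENSMUSG00000029417, chr5:92750357-92757105 on the minus strand of NCBIM37) was counted at 4.30 and 6.26 CPM in mature and at 18.0 and 30.2 CPM in elderly libraries. The ranges do not overlap, and the log2 fold change was 2.19 ± 0.34 (SE, adjusted p = 0.00403 in edgeR). It rests on 278 countable bases, 9.57% of the longest transcript. Cxcl10 was counted at 18.6 and 34.5 CPM in mature and at 42.7 and 55.2 CPM in elderly libraries, also without overlap, but its log2 fold change of 0.88 ± 0.29 (SE) had an adjusted p of 0.181 in edgeR. Cxcl10 passed the test in edgeR only under some alternatives, among them the fit without mature replicate 2 (log2 fold change 1.36). Cxcl11 had 0 counts, with 16.6% of its longest transcript countable, and Cxcr3 had 10 and 2 counts in mature and 20 and 6 in elderly libraries.

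The promoters of Cxcl9 and Cxcl10 are printed with that of Cxcl1, the CXCR2 ligand with the highest counts, because these inflammatory ligands are known targets of NF-kappa-B and, for the CXCR3 ligands, of interferon signaling. Each is the stretch of 250 bases before the RefSeq start site in GRCm38.p6, a later build than that of the counts, 5′ to 3′ on the strand of the gene. Capitals mark matches on either strand to the kappa-B consensus, in its stricter form with a pyrimidine at the sixth base, or to GAAA, any 2 bases and GAAA, the core of the interferon-stimulated response element (ISRE).
Cxcl9, chr5:92328080-92328329, minus strand: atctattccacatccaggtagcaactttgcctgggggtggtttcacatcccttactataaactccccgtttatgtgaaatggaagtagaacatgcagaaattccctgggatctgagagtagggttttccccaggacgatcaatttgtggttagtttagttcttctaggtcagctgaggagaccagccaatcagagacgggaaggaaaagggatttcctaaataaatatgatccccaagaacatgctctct
Cxcl10, chr5:92348890-92349139, minus strand: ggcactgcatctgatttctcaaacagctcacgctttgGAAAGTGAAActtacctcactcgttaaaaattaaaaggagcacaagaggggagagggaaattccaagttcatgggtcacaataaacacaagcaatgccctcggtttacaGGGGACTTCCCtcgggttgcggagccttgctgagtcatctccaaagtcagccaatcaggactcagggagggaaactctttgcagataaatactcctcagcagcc
Cxcl1, chr5:90890995-90891244, plus strand: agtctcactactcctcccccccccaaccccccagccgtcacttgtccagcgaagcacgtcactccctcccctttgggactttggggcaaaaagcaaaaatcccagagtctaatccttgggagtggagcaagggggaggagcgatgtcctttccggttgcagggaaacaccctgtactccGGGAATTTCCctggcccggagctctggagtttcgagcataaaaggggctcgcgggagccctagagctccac

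The Cxcl10 window held 1 ISRE core, which begins 213 bases before the start site, and 2 overlapping matches to this kappa-B form that begin 104 and 103 bases before it. The Cxcl1 window held 1 kappa-B match, 71 bases before the start site, and the Cxcl9 window held neither set of letters, which says nothing of the factors themselves. RefSeq promoters were matched for 41 of the 57 genes, and of their 50 promoters 10 held a kappa-B match, against 1643 of all 32851 promoters (5.0%). The genes were Ccl1, Ccl9, Ccl20, Ccr3, Ccr6, Ccrl2, Cxcl1, Cxcl2, Cxcl3 and Cxcl10. The ISRE core was found in 3 of the 50 (Ccl19, Cxcl10 and Cxcl14), against 2.98% of all promoters. Of the 5 genes that rose, the 4 with a matched promoter (Cxcl9, Ccr1, Cx3cr1 and Cxcr4) held neither, and a match of letters is not evidence of binding.

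The inflammatory CC ligands that share CCR1, a receptor of monocytes, macrophages and T cells, are grouped with it, and 2 of the 7 genes of this axis rose, Ccl5 and Ccr1. Ccl5 (RANTES, made by T and NK cells and by cytokine-stimulated stroma; chr11:83339280-83344020) was counted at 0.860 and 0.857 CPM in mature and at 4.22 and 3.49 CPM in elderly libraries. The elderly libraries held 47 and 53 reads of Ccl5 against 10 in each mature library, a log2 fold change of 2.15 ± 0.51 (SE, adjusted p = 0.0420 in edgeR). Its SE is the largest of the 5, and DESeq2 did not call it (adjusted p = 0.0656).

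Ccr1 (chr9:123876959-123883525) stood at 23.3 and 16.5 CPM in mature and at 40.3 and 44.2 CPM in elderly libraries. Its log2 fold change was 1.09 ± 0.25 (SE, adjusted p = 0.0378 in edgeR), the smallest of the 5. The related Ccr1l1 had 5 counts in elderly replicate 1 and 0 elsewhere. Of the 5 ligands of this axis only Ccl5 passed the test. Ccl4 was counted at 1.46 and 1.37 CPM in mature and at 3.68 and 4.02 CPM in elderly libraries, without overlap (log2 fold change 1.44, adjusted p = 0.173 in edgeR), and Ccl6 at 3.18 and 0.943 against 4.76 and 5.67 CPM (1.34, adjusted p = 0.295). Ccl3 overlapped between the ages, at 3.53 and 1.03 against 2.15 and 3.49 CPM.

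Ccl9, a CCR1 ligand known for its effect on osteoclast precursors, went the other way and was the CC ligand with the highest CPM in mature libraries. It stood at 65.6 and 61.8 CPM in mature and at 33.5 and 39.0 CPM in elderly libraries. The groups are well apart for the spread within them (63.7 ± 2.72 and 36.2 ± 3.87 CPM, SD, n = 2), yet the log2 fold change of -0.81 ± 0.21 (SE) had an adjusted p of 0.0713 in edgeR. DESeq2 called it lower, as did the robust quasi-likelihood fit and the fits with other filters, so that this gene sits at the threshold.

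CX3CR1, a receptor of monocytes, macrophages and osteoclast precursors, and its ligand CX3CL1 (fractalkine) differed in level and in change. Cx3cr1 (chr9:119957811-119977400) was counted at 3.35 and 2.31 CPM in mature and at 13.3 and 12.6 CPM in elderly libraries. The elderly libraries agree closely (12.9 ± 0.491 CPM, SD, n = 2) and lie well above the mature libraries (2.83 ± 0.736 CPM), with a log2 fold change of 2.19 ± 0.34 (SE, adjusted p = 0.00436 in edgeR). Cx3cl1 was among the 3 ligands with the most counts and did not pass the test, at 395 and 372 CPM in mature and 246 and 376 CPM in elderly libraries (log2 fold change -0.30, adjusted p = 0.692). Elderly replicate 1 alone was low.

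CXCR4, the receptor of hematopoietic cells for CXCL12, had the second highest mean CPM of these receptors in elderly libraries, after Ccrl1, although Ccr1 was above it in elderly replicate 2. Cxcr4 (chr1:130484776-130488870) was counted at 23.5 and 8.83 CPM in mature and at 55.8 and 39.2 CPM in elderly libraries, which do not overlap although each pair differs within itself. The log2 fold change was 1.56 ± 0.37 (SE, adjusted p = 0.0445 in edgeR), and the robust fit and the filterByExpr filter moved it across the threshold. Cxcl12 itself, which is no member of the set, had a log2 fold change of -0.61 ± 0.22 (SE, adjusted p = 0.232). The atypical CXCL12 receptor Cxcr7 (now Ackr3) had between 10 and 26 counts per library, with overlapping ages.

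**Figure D2:**
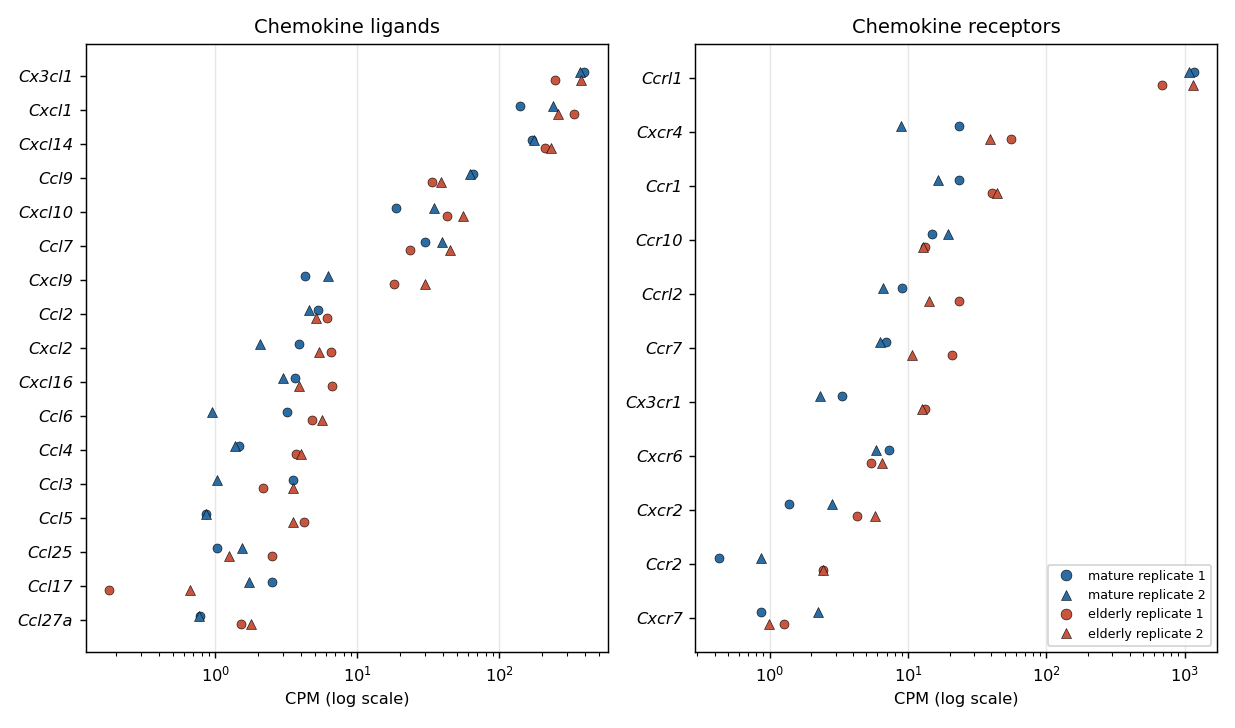
CPM on a log axis of the 17 ligands and 11 receptors with a mean of at least 1 CPM, in each of the 4 libraries (mature in blue, elderly in red, circles for replicate 1 and triangles for replicate 2). Ccrl1, Cx3cl1, Cxcl1 and Cxcl14 stood above 100 CPM in each library, and the elderly points of Cxcl9, Ccl5, Ccr1, Cx3cr1 and Cxcr4 lie to the right of all mature points.

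CXCR2 is the main chemokine receptor of neutrophils. All 7 tested genes of its axis had higher fitted levels in elderly libraries, while 0 were called and 4 had an unadjusted p under 0.05 in edgeR. Of the 7, Cxcl5 and Cxcl15 passed the filter through elderly counts alone and so could only be higher. For Cxcl3 and Cxcr1 the ages overlapped. Cxcl1 was counted at 139 and 239 CPM in mature and at 335 and 261 CPM in elderly libraries. The groups do not overlap, but the mature libraries differ widely (189 ± 70.7 against 298 ± 52.7 CPM, SD, n = 2), and the log2 fold change of 0.66 ± 0.26 (SE) had an adjusted p of 0.298 in edgeR. Cxcl2 was counted at 3.87 and 2.06 against 6.55 and 5.40 CPM (adjusted p = 0.346). Cxcr2 stood at 1.38 and 2.83 CPM in mature and at 4.31 and 5.80 CPM in elderly libraries (log2 fold change 1.27, adjusted p = 0.247). Cxcl5 had 0 counts in both mature libraries and 9 and 15 in elderly libraries, at least 3.49-fold higher when each mature library is set to 3 counts, with an adjusted p of 0.105 in edgeR. It has 141 countable bases, so its low counts do not give its level. Cxcl5 was called by edgeR's exact test, by the robust fit, with filterByExpr, without a filter and with transcripts not summed. Cxcl3, Cxcl15 and Cxcr1 had at most 12 counts in any library.

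CCR2 recruits monocytes out of the marrow toward CCL2 and CCL7. Ccr2 had 5 and 10 counts in mature and 27 and 37 in elderly libraries, which gave nearly equal levels in the elderly pair (2.42 and 2.44 CPM) and a log2 fold change of 1.90 ± 0.63 (SE, adjusted p = 0.184 in edgeR). Its ligands showed no such separation. Ccl7 was counted at 30.0 and 39.7 CPM in mature and at 23.4 and 44.8 CPM in elderly libraries (log2 fold change -0.03, adjusted p = 0.987 in edgeR). Ccl2 stood at 5.25 and 4.54 against 6.10 and 5.08 CPM (log2 fold change 0.19, adjusted p = 0.923 in edgeR). Its counts came from a retained-intron transcript, except for 1 in elderly replicate 1. The protein-coding transcript of Ccl2 has 42 countable bases, so these values do not give its level or change. Ccl8 had 6 counts in elderly replicate 2 only, and Ccl12 had none but only 56 countable bases.

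CCR7 guides dendritic cells and T cells to lymphoid tissue. Ccr7 was counted at 6.88 and 6.26 CPM in mature and at 20.7 and 10.7 CPM in elderly libraries, without overlap (log2 fold change 1.25 ± 0.35, SE, adjusted p = 0.0917 in edgeR). Of its ligand genes, Ccl19, Ccl21a and Ccl21c had 0 counts, Ccl21b had 1, and the pseudogenes Ccl19-ps1 and Ccl19-ps3 had at most 15 in any library. These genes have close copies of each other on chromosome 4, between which short reads may not be assigned. Ccl17, a ligand of CCR4 on regulatory and type 2 helper T cells, had 29 and 20 counts in mature and 2 and 10 in elderly libraries. This was the largest fitted decrease among the tested genes, a log2 fold change of -2.24 ± 0.74 (SE), with an adjusted p of 0.188 in edgeR. The other CCR4 ligand, Ccl22, had at most 3 counts per library and Ccr4 had none.

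Atypical receptors held most receptor counts. Ccrl1 (now Ackr4, a scavenger of CCL19, CCL21 and CCL25) was counted at 1164 and 1077 CPM in mature and at 692 and 1152 CPM in elderly libraries, between 78.9% and 93.7% of the CPM of these receptors in a library. It did not pass the test (log2 fold change -0.28 ± 0.24, SE, adjusted p = 0.735 in edgeR), and without elderly replicate 1, its only low library, the log2 fold change was 0.02. The annotation splits it over 2 gene identifiers. The identifier ENSMUSG00000079355 (chr9:104000468-104028973, minus strand) held 13366, 12356, 7581 and 17271 counts, and Acad11 lies over both on the opposite strand, so the counts of Ccrl1 are uncertain as far as the strand setting of the counting is not given. Ccrl2, an atypical receptor that binds chemerin, was counted at 9.03 and 6.60 CPM in mature and at 23.4 and 14.1 CPM in elderly libraries. The groups did not overlap, and the log2 fold change of 1.26 ± 0.33 (SE) had an adjusted p of 0.0676 in edgeR.

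With Ccrl1 left out, the receptors summed to 93.4 and 72.4 CPM in mature and to 185 and 152 CPM in elderly libraries. The ligands summed to 851 and 948 CPM in mature and to 951 and 1074 CPM in elderly libraries, so that the summed ligands of the ages barely separated. Cx3cl1, Cxcl1 and Cxcl14 held between 80.6% and 83.3% of the ligand CPM in each library. Cxcl14, a ligand made by epithelia and stroma, was counted at 171 and 176 CPM in mature and at 211 and 229 CPM in elderly libraries, a small separation without overlap (log2 fold change 0.34 ± 0.19, SE, adjusted p = 0.572 in edgeR).

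Among the other pairs, no gene passed the test in edgeR. Cxcl16 was counted at 3.61 and 3.00 CPM in mature and at 6.64 and 3.89 CPM in elderly libraries, and its receptor Cxcr6, found on T and NK cells, at 7.22 and 5.83 against 5.39 and 6.46 CPM. Ccr10, a receptor of skin-homing T cells and plasma cells, was counted at 14.9 and 19.5 against 13.3 and 12.8 CPM (log2 fold change -0.40, adjusted p = 0.666), and its ligand Ccl27a had 9 counts in each mature library against 17 and 27. Ccl25, the thymic ligand of CCR9, had between 12 and 28 counts per library, with overlapping ages. Most came from a processed transcript not annotated as protein-coding, and protein-coding transcripts had only 3 counts, in elderly replicate 1. Ccr9 has 76 countable bases and had 2 counts in each elderly library.

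Compared per length, as CPM per 1000 countable bases, Ccrl1 (by the identifier above) had the highest mean level in mature libraries, 620 ± 36.0 (SD, n = 2), followed by Cxcl14 with 483 ± 10.4, Cxcl1 with 198 ± 74.1 and Cx3cl1 with 137 ± 5.85. Neighbours differ beyond their spread at the top of this order, while Cxcl1 in mature replicate 1 was close to Cx3cl1. In elderly libraries Cxcl14 had the highest mean at 612 ± 36.2, and Ccrl1 at 511 ± 182 did not differ from it beyond its spread. The level of Cxcl14 rests on 360 countable bases, 19.7% of its longest transcript. The SD between libraries does not measure how coverage varies along a transcript, so the place of Cxcl14 in either order is uncertain. On the same scale Cxcl9 stood at 19.0 ± 4.97 in mature and 86.7 ± 30.9 in elderly libraries, which placed it between Cx3cl1 and Cxcr4 (52.3 ± 12.9) there, with spreads that touch those of both.

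**Figure D3:**
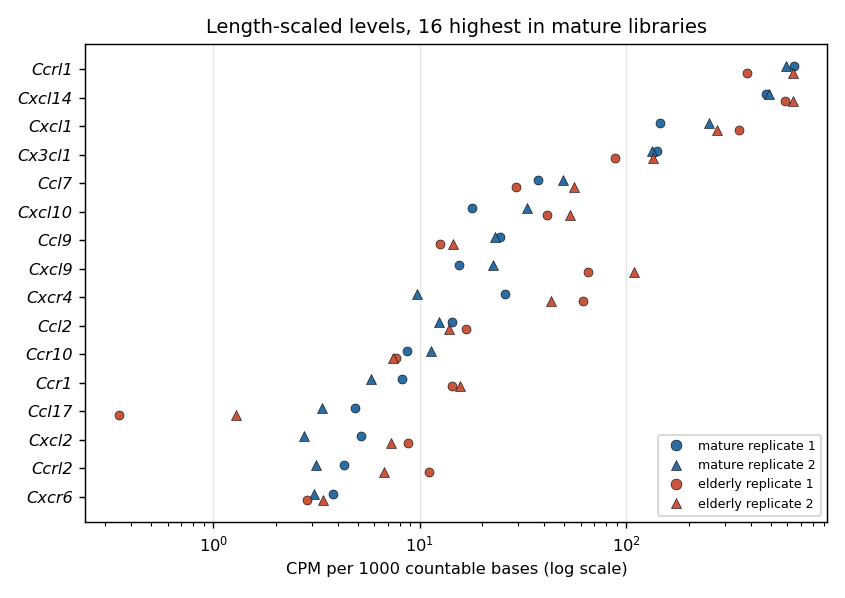
CPM per 1000 countable bases on a log axis, in each library, of the 16 chemokine and receptor genes with the highest mean level in mature libraries. Ccrl1, Cxcl14, Cxcl1 and Cx3cl1 lie furthest to the right, and both elderly points lie to the right of the mature ones for Cxcl1, Cxcl2, Cxcl9, Cxcl10, Cxcl14, Cxcr4, Ccr1 and Ccrl2 and to the left for Ccl9, Ccl17 and Ccr10.

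The other genes had few counts or none. Ccl11, Ccl24, Ccr6, Ccr8 and Xcr1 had at most 19 counts in any library. Ccl27b and Cxcl17, like Ccl21b, had too few counts to be tested. The 10 genes without a count were Ccl1, Ccl12, Ccl19, Ccl20, Ccl21a, Ccl21c, Ccl26, Cxcl11, Ccr3 and Ccr4. Of these, Ccr3 has 3 countable bases, so that its 0 gives no level. Ccl12, Ccl19, Cxcl11 and Ccl20 had 10.4%, 15.8%, 16.6% and 44.2% of their longest transcript countable, so a 0 bounds only that part. Where the bases could be counted, a count of 0 allows a level of up to 0.198 to 0.269 CPM, depending on the library (3 counts, counting error only). In all, 16 of the 57 genes had under 50% of their longest transcript countable.

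Markers of some hematopoietic cells, but not of others, moved in the same direction as the 5 genes that rose. Over all genes tested, 2.28% rose and 0.449% fell at the same threshold. Of the neutrophil list 7 of 11 tested genes rose, among them Elane and Ctsg. The sum of this list lay between 1254 and 2217 CPM in mature and between 4669 and 4774 CPM in elderly libraries. Of the monocyte and macrophage list 6 of 12 rose, among them Ly6c2 (log2 fold change 1.36), Mrc1 (1.93) and C1qa (3.43), while Csf1r (0.01) and Cd68 (-0.61) did not pass the test. Csf1r and Cd68 had only 13.5% and 17.2% of their longest transcript countable, against 100% for Ly6c2 and C1qa. The sum of the whole list overlapped between the ages, at 3653 to 4087 CPM in mature and 2908 to 4406 CPM in elderly libraries. Most of it came from Vcam1, which stroma also expresses, and without that gene the list summed to between 388 and 600.0 CPM in mature and between 957 and 1057 CPM in elderly libraries. The pan-leukocyte list summed to 30.3 and 61.4 CPM at its lowest and highest in mature and to 115 and 143 CPM in elderly libraries, with 1 of 5 (Cd53) called, while Ptprc, which encodes the CD45 used to exclude leukocytes in the sort, had 152 countable bases and 1 to 12 counts. The T and NK cell list summed to between 6.54 and 10.5 CPM in mature and between 13.1 and 22.0 CPM in elderly libraries, with 0 of 8 called in edgeR and 4 at an unadjusted p under 0.05. No library had more than 1 count of Cd8a, Ncr1 or Gzma from that list, nor more than 4 of Camp or S100a9 from the neutrophil list, which have 27 and 13 countable bases. Of the erythroid list 5 of 7 rose, of the plasma cell list 2 of 5 and of the endothelial list 1 of 6, while the dendritic cell, B-lineage, eosinophil and basophil, and megakaryocyte lists had no call and the osteoblast list 1 in each direction. The B-lineage list summed to between 659 and 741 CPM in mature and to less, between 443 and 560 CPM, in elderly libraries. In bulk RNA, more cells of a type and more RNA per cell cannot be told apart, and the part of these cells in the rise of the 5 genes was not tested.

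**Figure D4:**
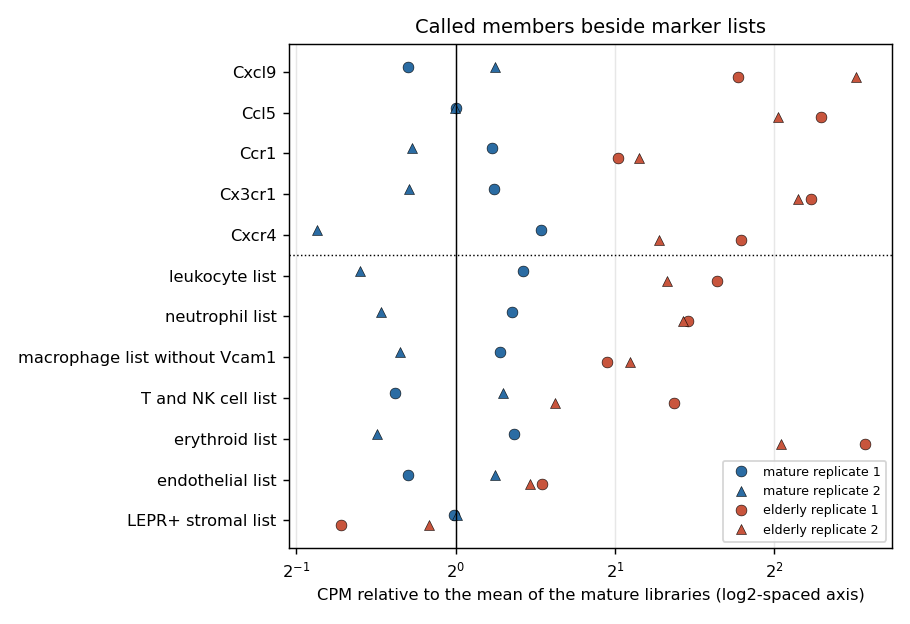
CPM of the 5 genes that rose and summed CPM of 7 marker lists in each library, relative to the mean of the mature libraries, on a log2-spaced axis, with a dotted line between genes and lists. Elderly points of the 5 genes and of the leukocyte, neutrophil, T and NK cell, erythroid and endothelial lists, and of the macrophage list without Vcam1, lie right of the mature points, and those of the LEPR+ stromal list lie left.

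Other genes of the chemokine system were read from lists. Of 29 tested genes of receptor signaling, 5 rose and 0 fell, against 2.28% and 0.449% of all genes tested. These were Rac2 (log2 fold change 1.63, adjusted p = 0.0134 in edgeR), a GTPase of blood cells, Plcb2 (2.64, adjusted p = 0.0138), a phospholipase, Dock2 (1.48, adjusted p = 0.0314), which activates Rac in leukocytes, and Pik3cg and Pik3r5 (1.27 and 1.86, adjusted p = 0.0404 and 0.0452), the catalytic and a regulatory subunit of the PI3-kinase that acts below G protein-coupled receptors. All 5 are known mainly from hematopoietic cells, but which cells their rise came from was not tested. Of the 29, 20 had higher and 9 lower fitted levels in elderly libraries, and 11 had an unadjusted p under 0.05 in edgeR. Genes that did not pass varied in direction. Gnai3, Arrb1 and Rhoa had log2 fold changes of -0.02, 0.06 and -0.02, Lyn had -0.20, and Rgs2 and Adrbk2 had 0.74 and 1.04. The 14 tested chemokine system genes outside the name rule, such as Pf4, Ppbp and Mif, gave 0 calls in edgeR. Of these 14, 13 were higher in elderly libraries and 5 had an unadjusted p under 0.05. The shares of all genes with a higher fitted level, or under this unadjusted p, were not counted.

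Among 24 tested inducers of chemokine genes, Il1b was the 1 that rose, from 35.6 and 34.0 CPM in mature to 67.3 and 96.8 CPM in elderly libraries (log2 fold change 1.24 ± 0.23, SE, adjusted p = 0.0134 in edgeR). Genes of NF-kappa-B (Nfkb1, Rela) did not pass the test. Of 11 tested interferon response genes, Gbp2 rose (0.81, adjusted p = 0.0433), and the median of the list was -0.0034. Immediate early genes gave 0 calls of 12 in edgeR, with 1 at an unadjusted p under 0.05 and 11 of 12 lower in elderly libraries. At the same adjusted threshold 2.28% of all genes tested rose and 0.449% fell.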

How the data were processed

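The authors removed adapters with CutAdapt, mapped reads to mm9 (NCBI Build 37) with HISAT2 and counted them with featureCounts. They deposited whole-number counts per Ensembl transcript, without normalization. Tool versions, strand setting and treatment of shared bases are not given in the sources used here. All 25621 transcripts without a base of their own had 0 counts.

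Counts were summed per GENCODE M1 symbol; 388 transcripts, with at most 0.0888% of the counts, had no match. Genes with a summed count over 2 were kept, scaled by TMM and tested with the quasi-likelihood test of edgeR 4.0.16 (limma 3.58.1, R 4.3.3; 2-sided, age only), with Benjamini-Hochberg adjustment over 21402 genes and a prior count of 0.125. The study's own test, the exact test with a dispersion of 0.2, was an alternative, as were DESeq2 1.42.0, other scalings, filters, units and thresholds, the replicate number as a block and each library left out.

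Genes were named with values when called or at a mean of at least 1 CPM; list genes were named when called, up to 6 per list, marker genes up to 3, and further genes singled out in the text were chosen after their values were seen. The name rule finds 58 genes, of which 1 is not reported here and enters no count of these genes. The gene rule and the lists were chosen with earlier results of these data known.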

Additional observations from a re-analysis of the deposited data

How the results depend on the processing

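Of the 57 chemokine and receptor genes, the 5 called higher stayed 5 with RLE factors, with library sizes alone, with TMM factors that leave out immunoglobulin, hemoglobin and histone genes, and with counts summed per gene identifier (an alternative chosen after seeing the data). DESeq2 called 5 higher, of which 4 are among the 5. The share of all genes tested that was called higher moved as well. That share went from 2.28% to 2.59% with DESeq2, 3.42% with the robust fit, 0.967% with the exact test and 4.00% without a filter. The number of chemokine and receptor genes called higher was 1 with the exact test (10 at an unadjusted p under 0.05 in either direction). It was 10 without a filter on low counts. It was 0 without elderly replicate 1 or 2, where a lone library is assumed to vary like the mature pair, 3 without mature replicate 2 and 8 without mature replicate 1. The robust fit called 8 higher, and 3 passed when an absolute log2 fold change over 2 was required as well. The number called lower was 1, Ccl9, under DESeq2, the robust fit, filterByExpr, no filter, protein-coding genes only, the replicate block and an adjusted p under 0.1.

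With the replicate number as a block, edgeR called 10 higher and 1 lower, which include all 5. The numbers mark no shared mouse or batch in the labels, and the deviations of same-numbered libraries had a correlation of 0.0447 over 14260 genes, so the samples were not treated as pairs. Over all genes the calls were 488 higher and 96 lower, 975 and 292 with the block, 207 and 33 with the exact test, 732 and 183 with the robust fit, 938 and 241 without a filter, 53 and 9 without elderly replicate 1, 0 and 0 without elderly replicate 2, and 739 and 133 without mature replicate 1.

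Leaving out 1 library moved the median log2 fold change of the tested genes between 0.76 and 1.41, of ligands between 0.72 and 1.28 and of receptors between 0.76 and 1.58, and filterByExpr moved the first from 1.07 to 0.75. Of the single gene results under alternatives, 421 kept their direction and side of the threshold, 21 lost the call, 25 gained one and 9 reversed, none of them called. With each library left out in turn, the log2 fold change of the genes that reversed ranged from -0.70 to 0.023 for Ccrl1, from -0.054 to 0.96 for Ccl25, from -0.99 to 0.33 for Cxcr7, from -0.35 to 1.46 for Ccl3, from -0.32 to 0.026 for Cxcr6 and from -0.57 to 0.35 for Ccl7, which was 0.021 with transcripts not summed. The cause of these changes was not tested. With 2 libraries per age, a gene of few counts such as Ccl5 lies close to the threshold.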
